A study of Mus musculus with 2 samples.

Results

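The genes described here encode the machinery of oxidative phosphorylation, in the mitochondrial and in the nuclear genome. They were chosen by symbol alone. Every gene whose symbol starts with mt- was taken, together with the Nduf genes of complex I, the Sdh genes of complex II, the Uqcr genes and Cyc1 of complex III, the Cox genes of families 4 to 8 whose number is followed by a, b or c, and the Atp5 genes of complex V. This gave 121 of the 23628 genes listed. They comprise 13 mitochondrial mRNA genes, called mitochondrial mRNAs below, 2 mitochondrial rRNAs, 13 mitochondrial tRNAs and 93 nuclear genes. Of the nuclear genes, 81 were counted as subunit genes and 12, by symbol or gene type, as copies or pseudogenes. Ndufa4, Ndufa4l2 and Cox7a2l were counted with complex IV. The name rule misses Cox4i1, Cox4i2 and Ndufab1, which encode subunits, and Cycs, which encodes cytochrome c. Their values are given where they bear on a result.

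RNA-sequencing was done on 2 libraries of Sox9GFPHi chondrospheres, called replicate 1 and replicate 2, and both belong to the same condition. Chondrospheres are cartilage colonies that grow from single cells. The cells came from femoral heads of homozygous Sox9 IRES-EGFP reporter pups at postnatal day 7 and were sorted for high GFP and for the absence of endothelial, erythrocyte and leukocyte surface markers. They were cultured in methylcellulose with Maintenance Media in a hypoxic chamber, and no untreated or normoxic library was analysed here. Both libraries share the reporter allele, the medium with its growth factors and the low oxygen. The sources used here do not say how many colonies entered a library, and the labels do not say whether the libraries came from separate pups. The methods of the study state that pups were harvested singly as biological replicates, without naming these libraries, so the spread between them may be partly technical. With 2 libraries of 1 condition no test between groups was possible, and all values are descriptions of these libraries.

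Oxidative phosphorylation passes electrons from NADH (complex I) and succinate (complex II) through complex III and cytochrome c to complex IV, where oxygen is reduced. Complexes I, III and IV pump protons across the inner mitochondrial membrane, and complex V uses the gradient to make ATP. The mitochondrial chromosome encodes subunits of every complex except complex II, and its genes are transcribed as long RNAs that are then cut into rRNAs, tRNAs and mRNAs. All other subunits are encoded in the nucleus and imported. Cartilage has few blood vessels, and chondrocytes are known to rely largely on glycolysis.

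Values are CPM, the counts of a gene scaled to the total of its library, after an added offset of 0.0001 was subtracted. Levels of different genes were compared as CPM per kilobase of exon, apart from summed CPM and the CPM of mitochondrial genes beside their nuclear copies. From the smallest steps in the values, replicate 1 held about 43300000 reads assigned to genes and replicate 2 about 42100000, and 3 reads correspond to 0.0693 and 0.0712 CPM. The 8 chondrocyte markers were all present, Sox9 at 252 CPM in replicate 1 against 279 in replicate 2 and Col2a1 at 148953 and 100682 CPM, and the lowest single value was that of Matn3 in replicate 2 (53.1 CPM). Summed marker levels of other cell types were low in both libraries, at 12.9 and 7.34 CPM for skeletal muscle, 0.0930 and 0.120 CPM for erythroid cells, 0.231 and 0.166 CPM for endothelium and 14.7 and 12.5 CPM for adipocytes. The leukocyte and osteoclast sum of 121 and 148 CPM was mostly Ctsk (111 and 144 CPM), and the pan-leukocyte gene Ptprc had 0.0231 and 0.0474 CPM.

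Sequences that bear on the results are shown first. The mitochondrial genes mt-Atp8 and mt-Atp6 overlap, as do mt-Nd4l and mt-Nd4, so that reads from these stretches belong to both genes. The overlaps are printed from the GRCm38 sequence on the plus strand at chrM:7927-7969 and chrM:10167-10173, with the start codon of the downstream gene and the stop codon of the upstream gene in capitals.
mt-Atp8 with mt-Atp6: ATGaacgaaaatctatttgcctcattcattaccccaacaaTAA
mt-Nd4l with mt-Nd4: ATGcTAA
The first overlap covers 43 bases of the 204 bases of mt-Atp8, the shortest of the mitochondrial mRNAs, and the second covers 7 bases.

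For the nuclear genes, promoters from 250 bases before to 50 bases after the transcription start were taken from RefSeq (GRCm38.p6). They matched 67 of the 81 subunit genes, with 72 promoters. NRF1, a nuclear factor known to activate respiratory chain genes, binds a palindrome-like motif, searched here as GCGCA, any base and GCGC. On either strand these letters stood in 18 of the 72 promoters (25%), in 17 genes, and in 1512 of all 32851 promoters (4.60%). Some genes were left out when choosing promoters to print, so an unprinted gene with a higher mean CPM may hold the motif. Stretches around the motif, in capitals, are shown for a gene with a high mean CPM in each complex among those that hold it. They lie at chr15:82354242-82354293 on the minus strand (Ndufa6, complex I), chr13:74350304-74350363 on the minus strand (Sdha, complex II), chr9:108936628-108936687 on the plus strand (Uqcrc1, complex III), chr5:115349086-115349145 on the minus strand (Cox6a1, complex IV) and chr2:73911280-73911339 on the minus strand (Atp5g3, complex V).
Ndufa6: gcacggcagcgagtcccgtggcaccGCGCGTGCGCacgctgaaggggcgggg
Sdha: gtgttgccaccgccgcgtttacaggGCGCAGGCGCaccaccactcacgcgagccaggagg
Uqcrc1: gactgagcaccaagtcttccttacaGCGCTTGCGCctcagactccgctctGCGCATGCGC
Cox6a1: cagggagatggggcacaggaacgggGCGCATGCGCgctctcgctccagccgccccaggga
Atp5g3: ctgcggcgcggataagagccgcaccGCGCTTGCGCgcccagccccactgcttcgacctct
The motif began 23 bases after the start in Ndufa6, 5 bases after it in Uqcrc1 and 12 bases after it in Atp5g3, and 98 bases before it in Sdha and 162 bases before it in Cox6a1. The ETS-type motif CCGGAAG, the kind bound by GABP, stood in 17 of the 72 promoters (23.6%) and in 2910 of all (8.86%). The short core of the hypoxia response element, ACGTG, stood in 18 (25%) and in 6447 of all (19.6%). The median GC content was 57.5% in the 72 promoters and 52.7% in all, and its part in the motif shares was not tested. A match to these letters is not a measured binding site.

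Nrf1 and Gabpa were themselves present at low to moderate levels, and the coactivator genes Ppargc1a and Ppargc1b averaged below 1 CPM. Nrf1 had 8.06 CPM in replicate 1 against 11.1 in replicate 2, and Gabpa, the DNA-binding subunit of GABP, had 21.6 and 36.8 CPM. Ppargc1a, the coactivator of mitochondrial biogenesis known as PGC-1 alpha, had 0.0693 and 0.308 CPM, and the related Ppargc1b had 0.139 and 0.261 CPM. In replicate 1 the Ppargc1a value corresponds to 3 reads.

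The 13 mitochondrial mRNAs together held 35383 CPM in replicate 1 against 25516 in replicate 2. That was 3.54% and 2.55% of all CPM (3.04% ± 0.70, SD, n = 2). The 81 nuclear subunit genes together held 2943 and 3677 CPM, or 0.294% and 0.368%. The summed CPM of the mitochondrial mRNAs was therefore 12.02-fold that of the nuclear subunit genes in replicate 1 and 6.94-fold in replicate 2, as shares of reads and not per length. All 13 mitochondrial mRNAs averaged 1 CPM or more, as had 77 of the 81 nuclear subunit genes, 4 of the 13 mitochondrial tRNAs and 5 of the 12 nuclear copies. Including both rRNAs, 101 of the 121 genes reached this level, against 12631 of all 23628 genes (53.5%).

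Among the mitochondrial mRNAs, mt-Co1 and mt-Atp8 were highest per length. The catalytic subunit of complex IV, mt-Co1 (chrM:5328-6872), had 11482 CPM in replicate 1 against 7519 in replicate 2, or 7432 and 4867 CPM per kilobase. mt-Atp8, a small subunit of the membrane part of complex V, had 1488 and 1563 CPM, or 7295 and 7664 CPM per kilobase. These genes changed places between the libraries, with mt-Co1 the higher in replicate 1 and mt-Atp8 in replicate 2. mt-Cytb, the cytochrome b subunit of complex III and its single mitochondrial subunit, followed with 4587 and 3281 CPM, or 4010 and 2868 CPM per kilobase. The place of mt-Atp8 is uncertain, since 43 of its 204 bases also belong to mt-Atp6, which had 1377 and 1062 CPM per kilobase. The part of read assignment and of the short length in this gap was not tested.

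The complex I subunits mt-Nd1, mt-Nd2, mt-Nd4, mt-Nd4l, mt-Nd5 and mt-Nd6 lay close together, between 1819 and 3081 CPM per kilobase in replicate 1 and between 1355 and 2355 in replicate 2. mt-Nd3 stood apart, with 104 CPM in replicate 1 against 70.6 in replicate 2, or 300 and 203 CPM per kilobase. It was the lowest mitochondrial mRNA in both libraries. mt-Nd6, the single mRNA gene on the other strand of the chromosome (chrM:13552-14070), had 959 and 760 CPM, or 1848 and 1465 CPM per kilobase. The sources used here do not state a strand setting for the counting, so reads from the opposite strand at this locus cannot be told apart from those of mt-Nd6.

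Several of these values depend on how reads were divided between near-identical genes. A stretch of chromosome 1 (chr1:24611535-24616197, minus strand) holds unprocessed pseudogenes that copy mitochondrial genes. Every run of 50 bases, the read length, of Gm10925, Gm28661, Gm28437, Gm28439 and Gm10222 also occurs in mt-Atp6, mt-Co2, mt-Co3, mt-Nd4 and mt-Nd4l, in this order. Gm28437 held 1597 CPM in replicate 1 against 1146 in replicate 2, equal to mt-Co3 itself with 1597 and 1146 CPM. Gm28661 held 1792 and 1222 CPM, above mt-Co2 with 1479 and 964 CPM, and Gm10925 held 1132 and 820 CPM, above mt-Atp6 with 938 and 723 CPM. Gm28438, which shares 293 of its 296 runs with mt-Nd3, held 144 and 108 CPM, again above the mitochondrial gene. A single-end read of this length cannot tell such pairs apart. Among these pairs, only for mt-Nd4 did the share given to the copy differ between the libraries by over 1.5 times, from 5.0% of the pair's CPM in replicate 1 to 19.8% in replicate 2.

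With the 9 nuclear copies, wholly or partly identical, added to the genes they match, the mitochondrial mRNAs held 40866 and 29796 CPM, or 4.09% and 2.98%. mt-Co2 then reached 4785 and 3199 CPM per kilobase, mt-Co3 4073 and 2923, mt-Nd4l 4392 and 3668 and mt-Atp6 3040 and 2266. mt-Nd3 reached 714 and 514 CPM per kilobase and was still the lowest in both libraries. The order of the genes between these extremes thus rests on how shared reads were assigned.

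**Figure D1:**
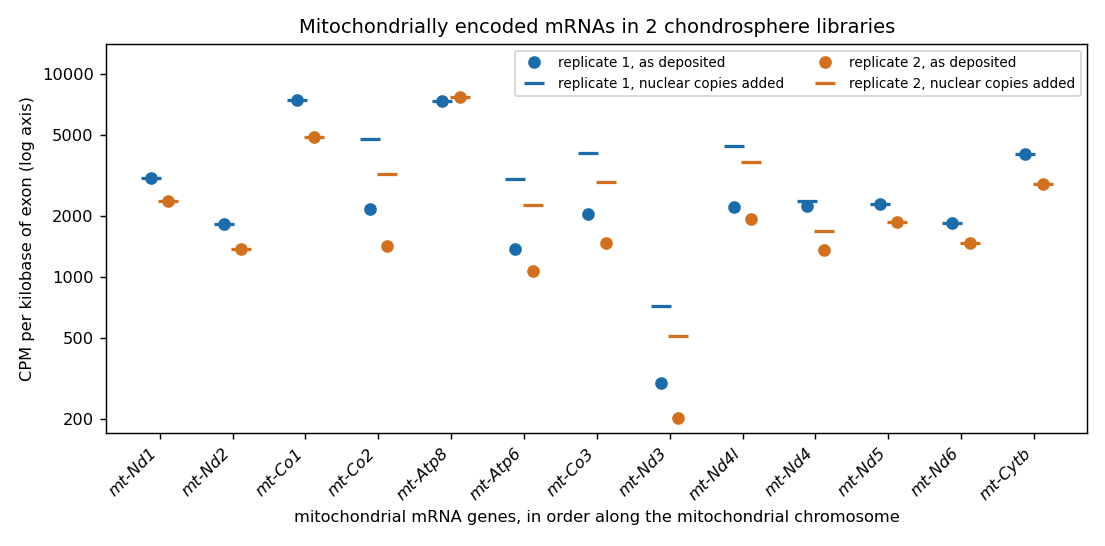
Levels of the 13 mitochondrial mRNAs as CPM per kilobase of exon on a log axis, in the order of the genes along the mitochondrial chromosome, with blue for replicate 1 and orange for replicate 2. Points are the deposited values and dashes include the nuclear copies, wholly or partly identical, which lift mt-Co2 in replicate 1 from 2163 to 4785 and leave mt-Nd3 the lowest gene, at 714.

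Mitochondrial rRNAs and tRNAs carry no long poly(A) tail, and the libraries were made from poly(A) RNA. mt-Rnr1, the small rRNA, had 134 CPM in replicate 1 against 89.8 in replicate 2, and mt-Rnr2, the large rRNA, had 223 and 124 CPM. Per length this was 140 and 94.1 CPM per kilobase for mt-Rnr1 and 141 and 78.2 for mt-Rnr2, below every mitochondrial mRNA in the same library. Of the tRNA genes, mt-Tp (proline) had 38.3 and 22.0 CPM, mt-Tl1 (leucine) 23.8 and 10.9, mt-Te (glutamate) 8.29 and 8.56 and mt-Ta (alanine) 1.71 and 1.59. The other 9 stayed below a mean of 1 CPM. A tRNA is hardly longer than a read, so its count can hold fragments of uncut precursors.

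The nuclear subunit genes that averaged 1 CPM or more and had a length ranged from 0.768 to 115 CPM per kilobase in replicate 1 and from 1.96 to 133 in replicate 2. The median of these 76 genes, 17.7 and 20.7 CPM per kilobase, lay above the median of 3.27 and 4.01 over all 12441 genes that averaged 1 CPM or more and a length. By complex, the median per kilobase in replicates 1 and 2 was 14.7 and 16.9 for complex I (35 genes), 15.8 and 20.8 for complex II (4 genes), 29.1 and 33.9 for complex III (9 genes), 32.4 and 38.7 for complex IV (12 genes) and 15.4 and 21.3 for complex V (16 of 17 genes). Complexes III and IV were thus the highest in both libraries. Dividing by the longest coding transcript in place of all exons raised the mean of the libraries from 18.3 to 48.4 for complex V, from 35.6 to 60.1 for complex IV and from 15.8 to 24.6 for complex I. This placed complex V above complex III, at 41.7, so the place of complex V depends on the length used.

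In complex I the highest genes per length were Ndufa2, Ndufa1 and Ndufa13, small accessory subunits. Ndufa2 had 32.6 CPM in replicate 1 against 31.3 in replicate 2, or 56.9 and 54.8 CPM per kilobase. Ndufa1 had 22.3 and 20.05 CPM, or 53.2 and 47.8 CPM per kilobase, and Ndufa13 had 59.1 and 61.3 CPM, or 47.2 and 49.0 CPM per kilobase. The lowest in the mean of the libraries were Ndufb2 with 2.37 and 1.96 CPM per kilobase, Ndufb4 with 3.34 and 4.42 and Ndufb5 with 4.19 and 4.53, and in replicate 1 Ndufs1 (4.03) lay below Ndufb5. With the longest coding transcript as length, Ndufb5 had 19.4 and 20.9, above Ndufs4 with 7.36 and 8.54. Ndufb4 is uncertain, since all 341 runs of 50 bases of its copy Ndufb4c (12.5 and 14.01 CPM) also occur in it. The 7 nuclear core subunits, which carry the flavin and the iron-sulfur clusters or lie beside them, had a median of 11.6 and 13.0 CPM per kilobase, below the 16.9 and 18.2 of the other 28.

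Complex II is the single complex made of nuclear subunits alone and also a step of the TCA cycle. Sdha, its flavoprotein, had 91.1 CPM in replicate 1 against 113 in replicate 2, or 22.1 and 27.5 CPM per kilobase. Sdhb, the iron-sulfur subunit, had 23.9 and 31.5 CPM, or 10.7 and 14.1 CPM per kilobase. The membrane anchors Sdhc and Sdhd had 8.28 and 9.76 CPM per kilobase and 20.9 and 29.7 CPM per kilobase. All 4 genes lay within a range of less than 4-fold in each library.

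In complex III, Uqcrh, the hinge protein that contacts cytochrome c1, was highest, with 57.5 CPM per kilobase in replicate 1 and 63.8 in replicate 2. Uqcr10 followed with 43.9 and 59.9 CPM per kilobase and Uqcr11 with 42.4 and 44.0. Lower values per length were measured for the larger subunits, namely 9.19 and 14.2 CPM per kilobase for the core protein Uqcrc1, 12.3 and 15.3 for the Rieske protein Uqcrfs1 and 12.6 and 15.4 for cytochrome c1, Cyc1. With the longest coding transcript as length, Uqcrc1 had 23.0 and 35.4, above Uqcrfs1 with 12.3 and 15.3. Cycs, the carrier between complexes III and IV, had 2.81 and 3.94 CPM per kilobase.

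In complex IV, Cox6a1 was the highest nuclear subunit gene of all per kilobase of exon, at 115 in replicate 1 against 133 in replicate 2. It had 81.0 and 93.1 CPM, below the 263 and 428 CPM of Atp5b in complex V. With the longest coding transcript as length, Cox6a1 had 163 CPM per kilobase in replicate 2, below the 223 of Atp5b. Cox8a had 71.2 and 107 CPM per kilobase and Cox6b1 had 64.4 and 82.3. Cox4i1, the regulatory subunit that the name rule misses, had 50.5 and 66.7 CPM per kilobase, below those 3 genes. The lowest of the 12 were Cox6c with 9.11 and 9.05 CPM per kilobase in replicates 1 and 2, Cox5a with 12.8 and 17.4 and Cox5b with 21.9 and 26.9. Ndufa4l2 took one of these places when replicate 2 was taken alone, at 11.6 CPM per kilobase. The order depends on the length used. With the longest coding transcript, Cox6c had 44.0 and 43.7 CPM per kilobase, above Cox7b with 30.7 and 43.1.

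In complex V, the catalytic core genes Atp5b and Atp5a1, which encode the beta and alpha subunits, were the highest per kilobase of exon. Atp5b had 263 CPM in replicate 1 against 428 in replicate 2, or 62.0 and 101 CPM per kilobase, and Atp5a1 had 201 and 293 CPM, or 64.0 and 93.3 CPM per kilobase. Atp5d, the delta subunit, had 27.6 and 36.7 CPM per kilobase. The c-subunit of the rotating ring is encoded by several nuclear genes that give the same mature protein. Of these, Atp5g3 had 25.7 and 36.6 CPM per kilobase, Atp5g1 had 14.4 and 15.2 and Atp5g2 had 0.768 and 2.19. Atp5g2 (chr15:102662864-102672352) was the lowest in replicate 1 of the subunit genes that averaged 1 CPM or more, and it shares 78 of its 704 runs of 50 bases with Gm10175, which was given 41.0 and 44.8 CPM. Its level is therefore uncertain. Atp5l had 7.59 and 11.8 CPM per kilobase and Atp5md had 7.35 and 12.04. The order depends on the length used, since per kilobase of the longest coding transcript Atp5l had 89.9 and 139 CPM and Atp5g3 77.5 and 110, above the 75.1 and 109 of Atp5a1, while Atp5b had 137 and 223.

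**Figure D2:**
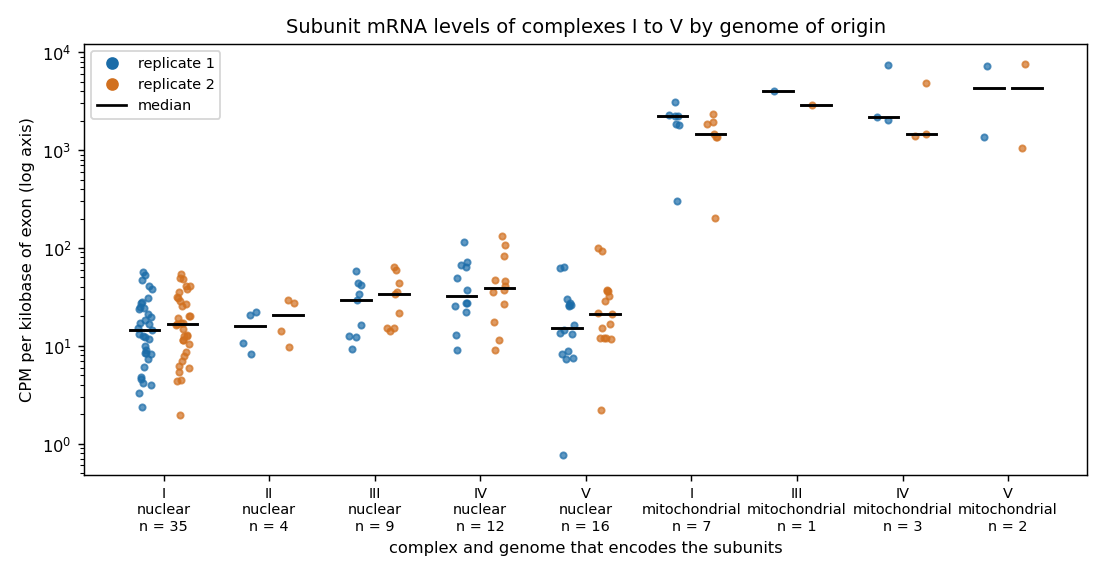
CPM per kilobase of exon on a log axis for nuclear and mitochondrial subunit genes of complexes I to V that averaged 1 CPM or more and a length, with 1 point per gene, blue for replicate 1, orange for replicate 2 and black lines for medians. The nuclear medians lie between 14.7 and 38.7. The lowest mitochondrial mRNA, mt-Nd3, lies at 300 and 203, above every nuclear subunit gene per kilobase of exon.

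Within each complex that has both kinds of subunit, the mitochondrial mRNAs were the higher by far. The median mitochondrial mRNA exceeded the median nuclear subunit gene per kilobase 125-fold in replicate 1 and 70.8-fold in replicate 2. On the log2 scale this was 6.96 and 6.15 (6.56 ± 0.58, SD, n = 2). For complex I the ratio was 151-fold and 86.9-fold, for complex III 138-fold and 84.7-fold, and for complex IV 66.7-fold and 37.7-fold. Complex V, with mt-Atp8 and mt-Atp6, had the widest gap at 282-fold and 205-fold. Its median rests on only 2 mitochondrial genes, which overlap, and on the uncertain level of mt-Atp8. Without division by length the order turned, with a mean log2 ratio of 4.36 for complex V, 4.95 for complex IV, 5.98 for complex I and 6.98 for complex III. Per kilobase of exon there was no overlap, the lowest mitochondrial mRNA having 300 and 203 and the highest nuclear subunit gene 115 and 133. With the longest coding transcript as length, Atp5b had 223 CPM per kilobase in replicate 2, above the 203 of mt-Nd3. A ratio of mRNA levels in bulk RNA does not give protein amounts, and fewer cells of a type and less RNA per cell cannot be told apart.

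The libraries differed in the balance between the genomes. Log2 ratios of replicate 2 to replicate 1 were computed with a pseudocount of 0.1 CPM, and since the median of the 12631 genes that averaged 1 CPM or more was 0.30, shifts are given relative to that median. All 13 mitochondrial mRNAs lay below it, against 6315 of the 12631 genes tested (50%), and 12 of the 13 lay at least 0.5 below, against 2015 of those genes (16%). Their median shift was -0.72, and without the centring it was -0.42, with 12 of 13 lower in CPM in replicate 2. The 77 nuclear subunit genes split into 40 above and 37 below the median, with a median shift of 0.01, which was -0.0091 with upper quartile scaling, and 3 of them lay at least 0.5 below. The difference between the median shifts of the mitochondrial mRNAs and of the nuclear subunit genes was -0.73 on the log2 scale, and this difference does not depend on the scaling of the libraries.

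The SD of the shifts of the nuclear subunit genes was 0.42, and 0.27 without Ndufa4l2. Over all genes tested it was 0.83, and over the 7903 genes that averaged 10 CPM or more it was 0.63. In size, a shift of -0.72 in a single gene lay between these SDs. The mitochondrial mRNAs are made from shared precursors, and their 13 values are not 13 independent observations. The chondrocyte markers also lay lower in replicate 2, with 7 of 8 below the median of all genes, a median shift of -0.69 and a summed level of 183883 CPM in replicate 1 against 128111 in replicate 2. Matn3, a matrilin of cartilage matrix, had 741 and 53.1 CPM. Whether the makeup of the colonies differed between the libraries in a way that bears on the mitochondrial shift was not tested.

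The shift was not even across the mitochondrial genes. mt-Nd4 lay at -1.03, mt-Co2 at -0.92, mt-Co1 at -0.91, mt-Nd3 at -0.87 and mt-Cytb at -0.79. mt-Nd4 was the single mitochondrial mRNA past 2-fold after centring, with 3081 CPM in replicate 1 against 1868 in replicate 2. With the reads of its copy Gm28439 added it lay at -0.78, and then no mitochondrial mRNA was past 2-fold and the range was -0.91 to -0.23. mt-Atp8 had the smallest shift, at -0.23, and was the one mitochondrial mRNA with more CPM in replicate 2. It overlaps mt-Atp6, which lay at -0.68, and the part of read assignment in this difference was not tested. The median with copies was -0.73. The rRNAs moved with the mRNAs, mt-Rnr1 by -0.88 and mt-Rnr2 by -1.15. Of the 4 tRNAs that averaged 1 CPM or more, mt-Tl1 lay at -1.42, mt-Tp at -1.10, mt-Ta at -0.40 and mt-Te at -0.26. The CPM of mt-Te was slightly higher in replicate 2.

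The nuclear complexes differed little from each other between the libraries. The median shift was -0.09 for complex I, 0.05 for complex II, -0.01 for complex III, 0.02 for complex IV and 0.19 for complex V. Without centring all 5 medians were positive, at 0.22, 0.35, 0.29, 0.33 and 0.49 in the same order, so the negative signs of complexes I and III hold only relative to the median gene. In complex I, 14 genes lay above that median and 21 below, and in complex V 13 lay above and 4 below. The 28 accessory subunits of complex I had a median shift of -0.17 and its 7 nuclear core subunits of 0.03.

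Complex V held the larger upward shifts. Atp5md (20.2 CPM in replicate 1 against 33.2 in replicate 2) lay at 0.41, Atp5b at 0.40, Atp5pb, a subunit of the peripheral stalk (55.6 and 88.8 CPM), at 0.37, Atp5l at 0.33 and Atp5a1 at 0.24. Uqcrc1 of complex III lay at 0.32 and Cox8a and Ndufa4 of complex IV at 0.29 and 0.25. Cox5b-ps, a copy that shares 211 of its 341 runs of 50 bases with Cox5b, lay at 0.45 (7.95 and 13.4 CPM). The lowest complex I gene was Ndufa3, with 17.2 CPM in replicate 1 against 12.9 in replicate 2 and a shift of -0.72. None of these reached 2-fold. The median counting error of the nuclear subunit genes was 0.057 on the log2 scale, and counting errors leave out every other source of spread.

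Of the 101 genes that averaged 1 CPM or more, 1 was past 2-fold higher in replicate 2 and 5 were past 2-fold lower. Over all genes tested 938 (7.43%) were past 2-fold higher, 766 (6.06%) were past 2-fold lower and 1704 (13.5%) were past it in either direction. Among the 77 nuclear subunit genes only 2 were past 2-fold, Ndufa4l2 and Atp5g2. Atp5g2 had 1.29 CPM in replicate 1 against 3.67 in replicate 2, a shift of 1.14, with the uncertainty from Gm10175 given above. With a pseudocount of 1 CPM, 1 nuclear subunit gene was past 2-fold.

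**Figure D3:**
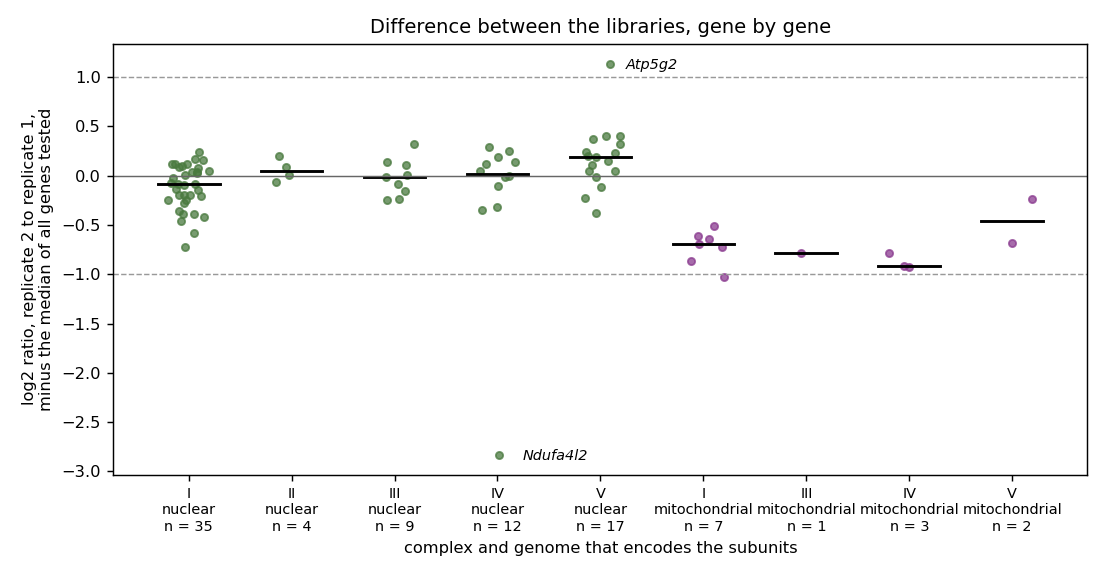
Log2 ratio of replicate 2 to replicate 1, minus the median of all genes tested, with 1 point per gene for the nuclear (green) and mitochondrial (purple) subunit genes of complexes I to V that averaged 1 CPM or more, black lines for medians and dashed lines at 2-fold. Ndufa4l2 lies at -2.83 and Atp5g2 at 1.14, the nuclear medians lie between -0.09 and 0.19, and all 13 mitochondrial mRNAs lie below 0.

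Ndufa4l2 had the largest difference of all the genes chosen. It is a paralog of Ndufa4, a subunit of complex IV, and is known as a target of the hypoxia-inducible factor HIF-1. Ndufa4l2 (chr10:127514967-127517154) had 73.9 CPM in replicate 1 against 12.7 in replicate 2, a shift of -2.83, while Ndufa4 (chr6:11900292-11907497) had 37.96 and 55.97 CPM. The values rest on 3198 and 536 reads for Ndufa4l2, and none of its runs of 50 bases occurs in another gene. Per kilobase, Ndufa4l2 was at 245% of Ndufa4 in replicate 1 and at 28.7% in replicate 2, so the order of the paralogs reversed between the libraries. The log2 ratio of Ndufa4l2 to Ndufa4 was 1.30 and -1.80, and with the longest coding transcript as length it was 0.35 and -2.75.

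The other paralog expressed in low oxygen, Cox4i2, held a nearly constant ratio to its partner. Cox4i2, a complex IV subunit known from lung and from hypoxic cells, had 6.24 CPM in replicate 1 against 8.40 in replicate 2, against 78.3 and 103 CPM for Cox4i1. Per kilobase it was at 15.7% and 16.0% of Cox4i1 (log2 ratio -2.66 ± 0.02, SD, n = 2). The ratio of these paralogs therefore varied far less between the libraries than that of Ndufa4l2 to Ndufa4.

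The isoforms restricted to muscle or testis stayed below 2% of their partners per kilobase. Cox6a2, the heart and skeletal muscle form of Cox6a1, had 1.18 CPM in replicate 1 against 0.617 in replicate 2, from 51 and 26 reads, and per kilobase it was at 1.502% and 0.684% of Cox6a1. Cox7a1, the muscle form of Cox7a2, had 9 and 7 reads, or 1.41% and 0.841% of its partner. Cox8b, the muscle form of Cox8a, had 2 reads in replicate 1 and 0 in replicate 2, where the floor of 3 reads is 0.0712 CPM. Cox6b2, the testis form of Cox6b1, had 5 reads in replicate 1 and 50 in replicate 2, or 0.162% and 1.30% of its partner. Of the 9 muscle markers, Tnnt3 had 9.01 and 2.18 CPM and Tnni2 3.44 and 3.51 CPM, Myl1 and Myh8 were at 0 in both libraries, Ckm had 0.0924 and 0 CPM, and the other 4 averaged below 1 CPM.

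The remaining genes of the name rule were minor. Of the 12 nuclear copies and pseudogenes, Cox7c-ps1 was at 0 in both libraries and the 5 that averaged 1 CPM or more ranged from 2.71 to 15.7 CPM in the mean. Ndufb1-ps had 13.6 CPM in replicate 1 against 17.8 in replicate 2 and shared no run of 50 bases with another gene. It was placed here by its symbol and gene type and not by shared sequence. Ndufa12-ps had 2.24 and 3.17 CPM and shared 278 of its 353 runs with Ndufa12. Atp5pb-ps had 7.06 and 6.64 CPM. All 12 together held 44.2 and 55.8 CPM.

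Other mitochondrial and energy genes were described by the same measures. All 44 assembly factors of oxidative phosphorylation averaged 1 CPM or more, with a median of 9.39 CPM in replicate 1 against 11.7 in replicate 2. None was past 2-fold, against 13.5% of all genes, and their median shift was -0.10, with 12 above and 32 below the median gene. Uqcc2, an assembly factor of complex III, had 30.5 and 29.7 CPM, and Surf1, an assembly factor of complex IV, had 21.2 and 19.3 CPM. Without centring the median of the list was 0.21.

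The genes that maintain and express mitochondrial DNA had, on the median, the shift of all genes. Of 22 listed, 20 averaged 1 CPM or more, 10 lay above and 10 below the median gene, and the median shift was 0.00. Polrmt, the mitochondrial RNA polymerase, had 20.8 CPM in replicate 1 against 25.8 in replicate 2, and Tfam, which packs mitochondrial DNA and starts its transcription, had 12.5 and 15.9 CPM. Lrpprc, which stabilises mitochondrial mRNAs, had 27.8 and 37.9 CPM. Polg2, the accessory subunit of the mitochondrial DNA polymerase, was the single gene of the list past 2-fold, with 2.43 and 1.19 CPM and a shift of -1.28. The 79 mitochondrial ribosomal protein genes that averaged 1 CPM or more had a median shift of -0.003, with none past 2-fold.

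The TCA cycle list lay above the median gene and the glycolysis list below it, although without centring neither median was negative. Of the 16 TCA cycle and pyruvate dehydrogenase genes, 13 lay above it and 3 below, with a median shift of 0.18 and none past 2-fold. Cs, citrate synthase, had 59.8 CPM in replicate 1 against 96.5 in replicate 2, and Idh3a, a subunit of isocitrate dehydrogenase, had 24.4 and 46.0 CPM, a shift of 0.61. Of the 17 glycolysis and transport genes, 3 lay above and 14 below, with a median shift of -0.29, which was 0.02 without centring. Their summed level was 4094 and 4579 CPM.

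In the glycolysis list 3 of 17 genes were past 2-fold, all lower in replicate 2 as Ndufa4l2 was, against 6.06% past 2-fold lower over all genes. Slc16a3, a lactate exporter, had 21.12 CPM in replicate 1 against 6.25 in replicate 2, a shift of -2.05. Slc2a1, the glucose transporter GLUT1, had 272 and 133 CPM, a shift of -1.34. Aldoc, an aldolase, had 1.59 and 0.830 CPM, a shift of -1.17, which was past 2-fold only with centring. Of the other enzymes, Hk1, a hexokinase, had 178 and 125 CPM, a shift of -0.81, and the phosphofructokinase genes Pfkm and Pfkl had shifts of -0.43 and -0.41. Ldha with 371 and 506 CPM (0.14), Pgk1 with 132 and 181 CPM (0.15) and Eno1 with 561 and 731 CPM (0.08) were the 3 above the median gene. The part of oxygen supply in these differences was not tested.

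Genes of import and the outer membrane had a median shift of 0.12, with 9 of 12 above the median gene. The cytosolic ribosomal protein genes, which like the nuclear subunit genes are short and widely expressed, had a median of 136 CPM in replicate 1 against 182 in replicate 2 and a median shift of 0.06. Genes with exons under 1500 bases had a median shift of -0.02. Most mitochondrial mRNAs are of that size.

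**Figure D4:**
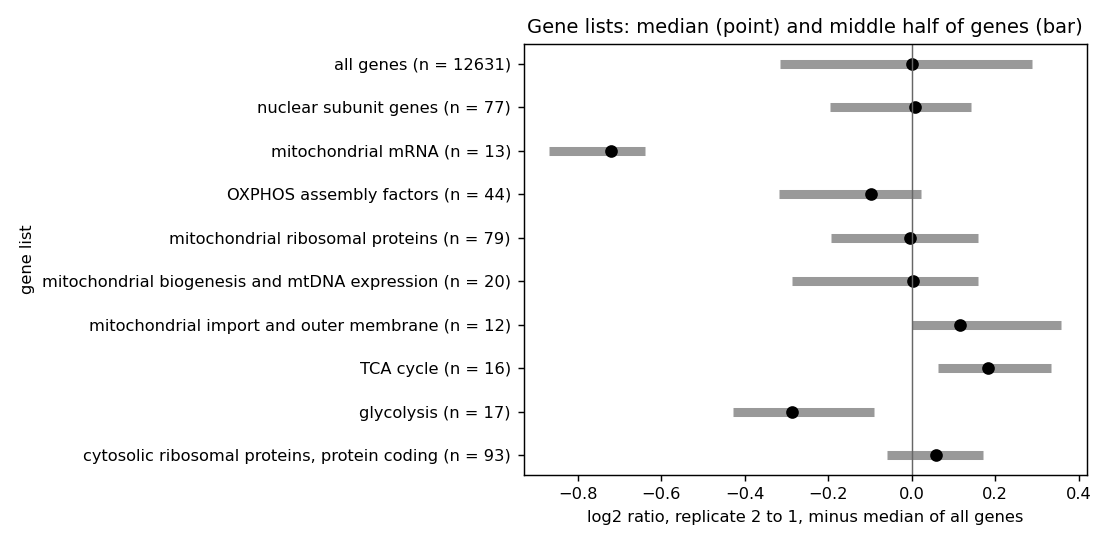
Log2 ratio of replicate 2 to replicate 1, minus the median of all genes, for 10 gene lists, with points for the median and bars from the lower to the upper quartile over the genes that averaged 1 CPM or more. The mitochondrial mRNAs lie at -0.72 and glycolysis at -0.29, whereas the other 8 lie between -0.10 and 0.18. Without centring every list moves up by 0.30, and glycolysis then lies at 0.02.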

How the data were processed

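Poly(A) RNA of 2 libraries was sequenced by the authors as stranded, single-end 50-base reads. The authors aligned them to GRCm38 with GENCODE M25 by STAR 2.7.3a in Partek Flow 10.0.21.0801, divided them among genes by Partek E/M and deposited CPM with an offset of 0.0001, which was subtracted. Of the values up to 20 steps, 68% and 66.7% lay within 0.05 of a whole multiple of the step, so no count-based test was run. Read numbers and counting errors in the text come from CPM times the implied reads of the library and are approximate. Exon lengths and shared runs of 50 bases came from GENCODE M21 on GRCm38, where 22973 gene names had 1 match. Atp5o matched 2 genes and Ndufs5-ps none, so both lack a length.

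The genes and lists were chosen with earlier results of these data known. Named were all mitochondrial mRNAs and rRNAs, the 3 highest and 3 lowest subunits per length in each complex, the 10 genes with the largest log2 ratio in each direction, and members of the lists. Further genes, such as the copies of mitochondrial genes, the c-subunit genes, the tRNAs mt-Te and mt-Ta, and Ndufa3, were named after their values were seen. Alternatives changed the scaling, pseudocount, filter, length, members and libraries. Adding the nuclear copies, wholly or partly identical, was an alternative chosen after seeing the data. The computation was tested on simulated data. Python 3.11.15, numpy 2.4.6, pandas 2.3.3 and matplotlib 3.10.9 were used.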

Additional observations from a re-analysis of the deposited data

How the results depend on the processing

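Over 22 results, 155 alternative values were computed, of which 119 kept their direction and moved by less than the spread used for comparison, 29 moved further and 7 changed sign. Set against the total without the 10 genes of highest mean, of which mt-Co1 is one, the mitochondrial mRNAs with mt-Co1 came to 4.97% of that total in place of 3.04%, and the nuclear subunit genes to 0.539% in place of 0.331%. The mean log2 ratio of mitochondrial to nuclear subunits per length, 6.56, was 5.66 with the longest coding transcript, 5.64 with no division by length and 7.14 with the nuclear copies added. Without centring, the median log2 ratio between the libraries was -0.42 for the mitochondrial mRNAs and 0.31 for the nuclear subunit genes, and 0.22, 0.35, 0.29, 0.33 and 0.49 for complexes I to V. The median of the nuclear subunit genes, near 0, changed sign with upper quartile scaling (-0.0091) and with a filter of 10 CPM (-0.012), and that of complex III with centring on short genes (0.012), a pseudocount of 1 CPM (0.0021) and no filter (0.034). The mitochondrial mRNA past 2-fold was lost without centring and without the filter (0 each). The count of nuclear subunit genes past 2-fold, 2 as reported, was 1 with a pseudocount of 1 CPM, 4 without the filter and 1 with a filter of 10 CPM. With the longest coding transcript the median levels per kilobase of complexes I to V were 24.6, 24.8, 41.7, 60.1 and 48.4, and without the filter that of complex IV was 28.8. Leaving out a library gives the value of the other, printed in the report, and says nothing of stability. Of the 119 values, 24 are of this kind. Some others could not move, as the difference of the median shifts under a change of scaling. Among the genes described, Cox7a1, Cox8b, Ppargc1a, Ppargc1b, Ptprc, Ckm and several tRNAs rest on few reads.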
